A study of Mus musculus with 2 samples.

Results

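Acyl-CoA thioesterases split the thioester bond between a fatty acyl group and coenzyme A, which returns a free acid and free coenzyme A. The 10 genes examined here, *Acot1*, *Acot2*, *Acot3*, *Acot4*, *Acot7*, *Acot8*, *Acot9*, *Acot11*, *Acot12* and *Acot13*, were picked by gene symbol from the 45777 genes of a table of mouse liver RNA, and the counts of their 35 transcripts were summed for each gene. All 10 passed the filter on low counts (10 or more in either library), as did 15857 genes in all. The samples were livers of C57BL/6 mice (C57BL/6 N in the methods of the study) that entered a high-fat diet (HFD) at 7 weeks of age, ate it for 18 weeks and, at week 13, received adeno-associated virus (AAV) by retro-orbital injection. The AAV-GFP group received a virus encoding green fluorescent protein and served as the control, and the AAV-*Wee1-AS* group received a virus encoding *Wee1-AS*, an RNA transcribed antisense to the cell cycle kinase gene *Wee1*. The AAV-*Wee1-AS* virus was of serotype AAV9 and carried the CMV promoter, neither of which is restricted to hepatocytes, and the sex of the animals behind these libraries was not given in the labels. There was 1 library per group, and the labels mention 4 livers without saying whether a library is 1 animal or a pool. So no value has a spread between animals, no test between the groups was possible, and every difference below is a difference between 2 libraries.

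The 2 libraries held 55466182 (AAV-GFP) and 48079335 (AAV-*Wee1-AS*) estimated counts. All 8 hepatocyte markers passed the count filter, led by the albumin gene *Alb* with 2542754 and 3065513 counts, and the median of their log2 ratios (AAV-*Wee1-AS* over AAV-GFP) was -0.04 beside -0.02 over all genes, with *Cps1* past 2-fold (1.21). The medians of 5 pericentral and 6 periportal hepatocyte markers were 0.21 and -0.11, with *Slc1a2* past 2-fold (1.54) and the most abundant genes *Cyp2e1* and *Ass1* at 0.21 and -0.14. The overexpressed RNA itself was not analysed here, so the labels were not checked through it. The sense gene *Wee1* was higher in AAV-*Wee1-AS*, with 635 and 1039 counts and a log2 ratio of 0.97 (0.83 to 1.12), which is no check of the labels. Of other cell types, the summed level of 7 stellate cell markers was 408 and 265 scaled CPM (counts relative to library size), with 3 higher and 4 lower. The collagen genes *Col3a1* (161 and 39.4 scaled CPM) and *Col1a1* (64.0 and 12.8) were lower by log2 ratios of -2.03 and -2.32. *Pdgfrb* and *Des* were lower by -1.09 and -0.59. *Lrat*, *Dcn* and *Reln* were higher by 1.46, 0.33 and 0.25, so the lower sum does not hold for all of these markers. The 7 macrophage and Kupffer cell markers summed to 323 and 302, with 4 higher and 3 lower. *Marco* and *Vsig4* were higher by 1.60 and 1.52. *Cd68* and *Csf1r* were lower by log2 ratios of -0.88 and -0.40, and the abundant *Clec4f* was at -0.15. The 6 endothelial markers, led by *Stab2*, summed to 255 and 233, the 5 cholangiocyte markers, led by *Spp1*, to 38.2 and 34.3, and the 5 lymphocyte markers, led by *Cd79a*, to 2.67 and 2.25, where *Ms4a1* was at 0 in AAV-GFP and at 23 counts in AAV-*Wee1-AS*. Of 4 adipocyte markers only *Cfd* passed the filter (492 and 431 counts), *Lep* was at 0 in both libraries and *Adipoq* had 2 counts in each. The part of these cell type differences in the thioesterase values was not tested, and in bulk liver fewer cells of a type and less RNA per cell cannot be told apart.

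Mammals hold 2 unrelated groups of acyl-CoA thioesterases that carry the same name. The type I enzymes, encoded by *Acot1* to *Acot6*, share the alpha/beta hydrolase fold and a serine at their active site, and differ mainly in the compartment they reach: the cytosol (ACOT1), mitochondria (ACOT2) or peroxisomes (ACOT3 and ACOT4). The type II enzymes, encoded by *Acot7* to *Acot13*, have the hotdog fold and sit in the cytosol (ACOT7 and ACOT12), mitochondria (ACOT9 and ACOT13) or peroxisomes (ACOT8), and ACOT11 and ACOT12 also carry a START lipid-binding domain. In liver these enzymes set free fatty acids and coenzyme A in the compartments where acyl-CoA is made and oxidised, and several of the type I genes are known to respond to fasting and to PPARα, the fatty acid receptor of hepatocytes.

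The type I genes lie side by side on the plus strand of chromosome 12 (mm10) in the order *Acot2*, *Acot1*, *Acot4*, *Acot3*, *Acot5* and *Acot6*, and they resemble each other so closely that reads can be hard to assign. To show this, 45 bases of coding sequence around the codon of the active-site serine (TCC, in capitals, found as the serine of the pattern glycine, any residue, serine, any residue, glycine) are given for the 4 type I members, from the mouse GENCODE M21 transcripts (GRCm38, the assembly of mm10), 5′ to 3′ on the plus strand. They lie at chr12:84016795-84016839 in *Acot1*, chr12:83992517-83992561 in *Acot2*, chr12:84058436-84058480 in *Acot3* and chr12:84043206-84043250 in *Acot4*.
Acot1: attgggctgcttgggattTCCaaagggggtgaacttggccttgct
Acot2: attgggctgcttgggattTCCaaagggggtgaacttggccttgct
Acot3: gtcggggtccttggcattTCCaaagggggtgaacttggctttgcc
Acot4: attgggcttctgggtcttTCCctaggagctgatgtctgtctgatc
*Acot1* and *Acot2* were identical over these 45 bases, *Acot3* differed from *Acot1* at 7 of them, and *Acot4* differed from *Acot1* at 17. Over their aligned coding sequences *Acot1* and *Acot2* shared 95.6% of bases, with a longest identical run of 273 bases, *Acot1* and *Acot3* shared 84.0%, and *Acot3* and *Acot4* shared 75.3%. Of all stretches of 100 bases, the length of a read, 41.1% of those in the *Acot1* coding sequence, 28.5% in *Acot2* and 39.9% in *Acot3* also occurred in the transcripts of another gene, against 1.89% in *Acot4*, 1.31% in *Acot9* (shared with *Acot10*) and 0 in *Acot7*, *Acot8*, *Acot11*, *Acot12* and *Acot13*. For *Acot3*, 330 of its 478 shared stretches were shared with *Gm49366*, which GENCODE marks as a read-through transcript of this locus. The separate values of *Acot1*, *Acot2* and *Acot3* are therefore uncertain where the authors' counting had to divide such reads.

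Between the 2 libraries the family did not move as a block. *Acot12*, *Acot3*, *Acot9*, *Acot4* and *Acot1* were higher in AAV-*Wee1-AS*, and *Acot8*, *Acot7*, *Acot2*, *Acot13* and *Acot11* were lower, with log2 ratios from 1.05 down to -0.71 and a median of -0.02, the same as that over all genes (-0.02). *Acot12* alone was past 2-fold, which is 1 of 10 members (10%) beside 31.0% of all genes tested, and this call was lost under 7 of 13 alternative settings. Of all genes, 22.2% were above 2-fold and 8.71% were below 0.5-fold. All 10 intervals for counting error left out a ratio of 1, as did those of most genes (6195 above 1 and 6029 below it, of 15857), and these intervals cover counting error only and say nothing of the difference between animals.

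**Figure D1:**
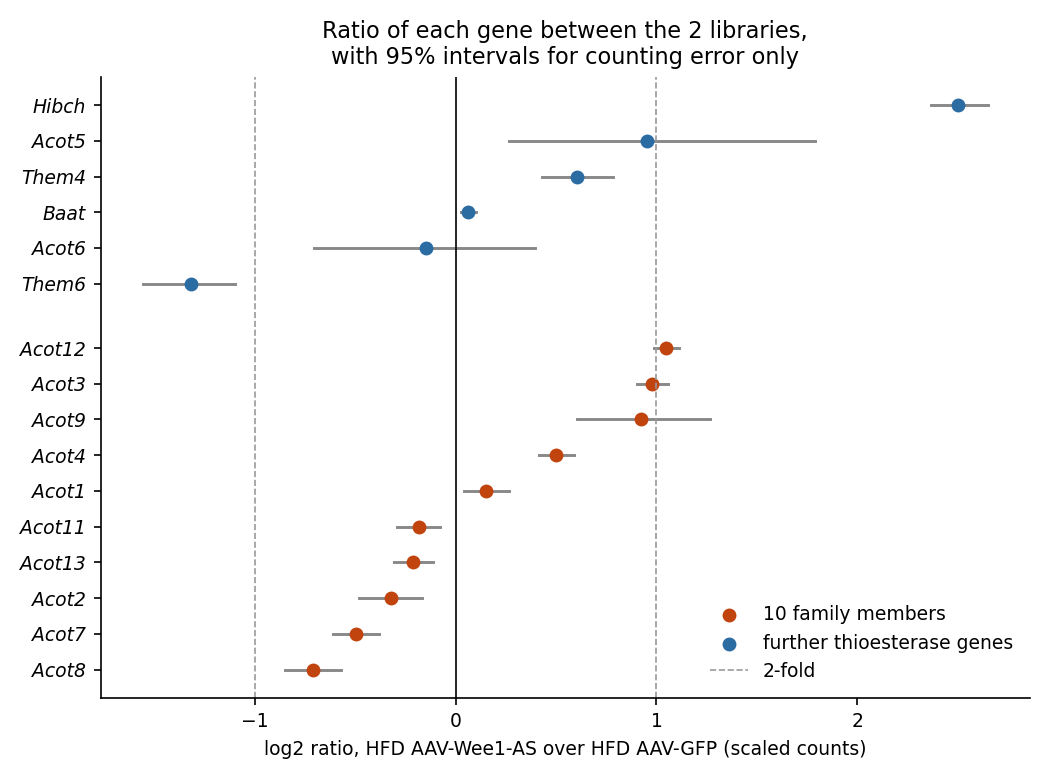
Log2 ratio of scaled counts, AAV-*Wee1-AS* over AAV-GFP (x axis), for the 10 family members and 6 further thioesterase genes (y axis), with points for the ratio of the 2 libraries, bars for exact 95% intervals of counting error only and dashed lines at 2-fold. *Acot12* at 1.05 is the only member beyond a dashed line, and *Acot3* at 0.98 and *Acot9* at 0.92 lie just inside it.

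Among the cytosolic enzymes, *Acot12* showed the widest difference of the family. ACOT12 hydrolyses acetyl-CoA in the liver cytosol. *Acot12* (chr13:91741326-91786148) had 3196 counts in AAV-GFP and 5511 in AAV-*Wee1-AS*, or 32.4 and 65.4 TPM (a level per transcript length, scaled to the same sum in each library). The ratio was 2.07 (95% interval of counting error 1.98 to 2.16), and the interval reached below 2-fold. *Acot1*, a cytosolic enzyme of long-chain acyl-CoA (chr12:84009502-84017670), had 1388 and 1286 counts, which after scaling to library size gave a ratio of 1.11 (1.03 to 1.20). *Acot7*, a long-chain acyl-CoA hydrolase that is abundant in brain (chr4:152178100-152271855), went the other way, with 1665 and 984 counts, 35.7 and 24.8 TPM and a ratio of 0.710 (0.655 to 0.768). The 3 cytosolic genes together made up 95.1 TPM in AAV-GFP and 120 TPM in AAV-*Wee1-AS*.

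The mitochondrial enzymes were led by *Acot13*, also called Them2, a small hotdog thioesterase associated with mitochondria that acts on medium- and long-chain acyl-CoA. *Acot13* (chr13:24817955-24831489) had the highest level of the family in both libraries, 93.6 and 79.5 TPM, from 2116 and 1523 counts, with a ratio of 0.864 (0.808 to 0.923). *Acot2*, the mitochondrial counterpart of *Acot1* (chr12:83987861-83993877), had 827 and 550 counts, 11.4 and 8.95 TPM and a ratio of 0.799 (0.715 to 0.890). *Acot9*, a mitochondrial thioesterase on the X chromosome (chrX:155262443-155297654), had the lowest level of the family in both libraries, with 125 and 199 counts or 2.16 and 4.06 TPM. Its log2 ratio of 0.92 had the widest interval of the 10 members (0.60 to 1.27), and it rested on the fewest counts. Its near copy *Acot10*, 97.2% identical to it over the coding sequence, was at 0 counts in both libraries. The summed level of the 3 mitochondrial genes was 107 TPM in AAV-GFP and 92.5 TPM in AAV-*Wee1-AS*.

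The 3 peroxisomal enzymes diverged. *Acot3*, a peroxisomal enzyme of long-chain acyl-CoA (chr12:84052144-84060400), had 2162 and 3548 counts, 24.6 and 48.8 TPM and a ratio of 1.97 (1.87 to 2.08). Its neighbour *Acot4*, which in the mouse acts on succinyl-CoA (chr12:84037254-84044723), had 1983 and 2339 counts, 25.4 and 34.4 TPM and a ratio of 1.42 (1.33 to 1.50). *Acot8*, the peroxisomal hotdog enzyme, which acts on acyl-CoA of many chain lengths and on bile acyl-CoA (chr2:164792768-164820219), had 1261 and 642 counts, 33.0 and 19.8 TPM and a ratio of 0.612 (0.555 to 0.673), the lowest of the family. The antisense neighbour *Snx21*, which overlaps the end of *Acot8* on the opposite strand, had 560 and 297 counts; the library kit kept strand, but whether the counting used it is not given in the sources used here. *Acot11*, a START-domain enzyme known from brown fat (chr4:106744555-106805007), fell in none of these 3 groups and had 1693 and 1241 counts, 9.06 and 7.85 TPM and a ratio of 0.880 (0.817 to 0.947).

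**Figure D2:**
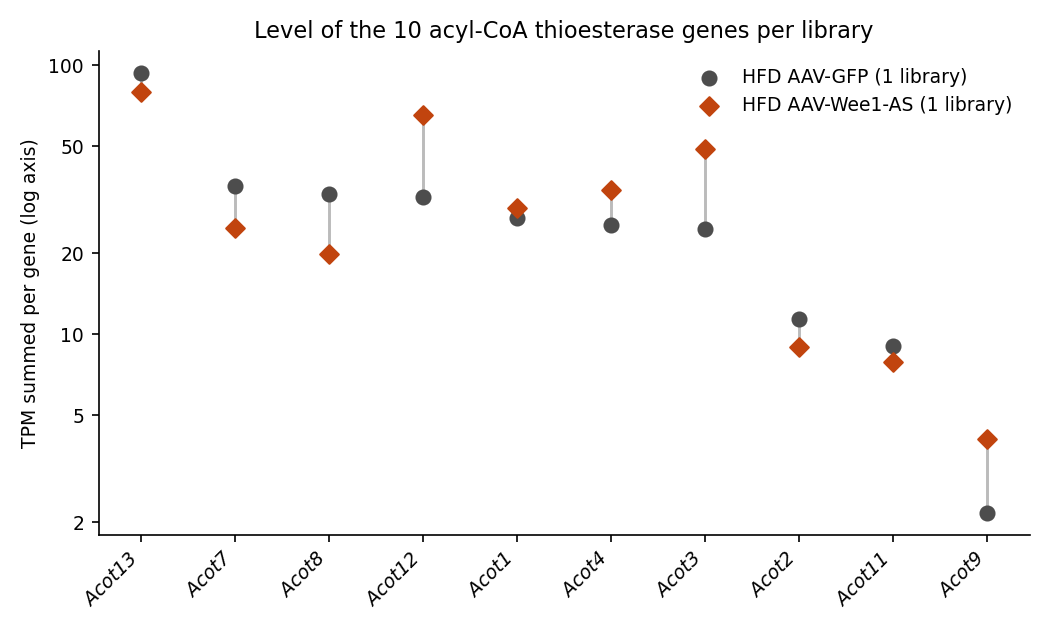
TPM summed per gene on a log axis (y) for each of the 10 members (x), ordered by the AAV-GFP library, with a grey circle for the AAV-GFP library and an orange diamond for the AAV-*Wee1-AS* library. *Acot13* lies on top in both libraries, *Acot12* and *Acot3* lie higher in AAV-*Wee1-AS*, and *Acot7* and *Acot8* lie lower.

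The order of the members changed with these values. In AAV-GFP, the levels after *Acot13* lay close together: *Acot7* (35.7 TPM), *Acot8* (33.0), *Acot12* (32.4), *Acot1* (27.0), *Acot4* (25.4) and *Acot3* (24.6). In AAV-*Wee1-AS*, *Acot12* (65.4) came next after *Acot13*, followed by *Acot3* (48.8), *Acot4* (34.4), *Acot1* (29.5), *Acot7* (24.8) and *Acot8* (19.8), while *Acot2*, *Acot11* and *Acot9* kept the last 3 places in both. Without replicates, no pair of neighbours in either order can be said to differ beyond a spread. The 10 genes summed to 294 TPM in AAV-GFP and 323 TPM in AAV-*Wee1-AS*. The cytosolic genes held 32.3% and 37.1% of that sum, the peroxisomal genes 28.2% and 31.9%, and the mitochondrial genes 36.4% and 28.6%.

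Along the chromosome 12 cluster the log2 ratios were -0.32 (*Acot2*), 0.15 (*Acot1*), 0.50 (*Acot4*), 0.98 (*Acot3*), 0.95 (*Acot5*) and -0.15 (*Acot6*). The last 2, a peroxisomal thioesterase gene and a further type I gene, are not members of the set, and with 25 and 42 counts (*Acot5*) and 68 and 51 counts (*Acot6*) they lay near the count filter. Since these genes share reads, the 6 were also summed. They held 6453 and 7816 counts, a log2 ratio of 0.54 (0.49 to 0.59). By construction, a sum does not depend on how reads were divided among these 6 genes. It does not cover reads shared with *Gm49366*. Summing could not tell which gene carried the higher value.

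Transcripts of *Acot3* differed more than the gene itself. Transcript variant 2 (NM_001346701) had 1682 counts in AAV-GFP and 364 in AAV-*Wee1-AS*, whereas variant 1 (NM_134246) had 480 and 3184. Variant 1 thus held 22.2% (95% interval of counting error 20.5 to 24.0) of the *Acot3* counts in AAV-GFP and 89.7% (88.7 to 90.7) in AAV-*Wee1-AS*. These counts are estimates, and how reads shared by both transcripts were assigned was not tested. The interval does not cover the error of that assignment.

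By the exon models whose summed lengths equalled those in the table (2594 and 2689 bases), the 2 transcripts share 1847 bases. Exon 2 of variant 1 begins further upstream (1216 bases against 469), its last exon is shorter (1145 bases against 1980) and so is its exon 1 (30 bases against 37), which leaves 747 bases in variant 1 only and 842 in variant 2 only. Only reads on those bases or across their edges tell the transcripts apart. The longer exon 2 adds 33 coding bases, or 11 codons, in frame at the start of the protein. The stretch with both start codons, at chr12:84053452-84053511 on the plus strand (GRCm38), is given with the start codons of variant 1 and then variant 2 in capitals, 60 bases in all.
Acot3 start: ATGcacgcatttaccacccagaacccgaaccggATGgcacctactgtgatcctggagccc

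**Figure D3:**
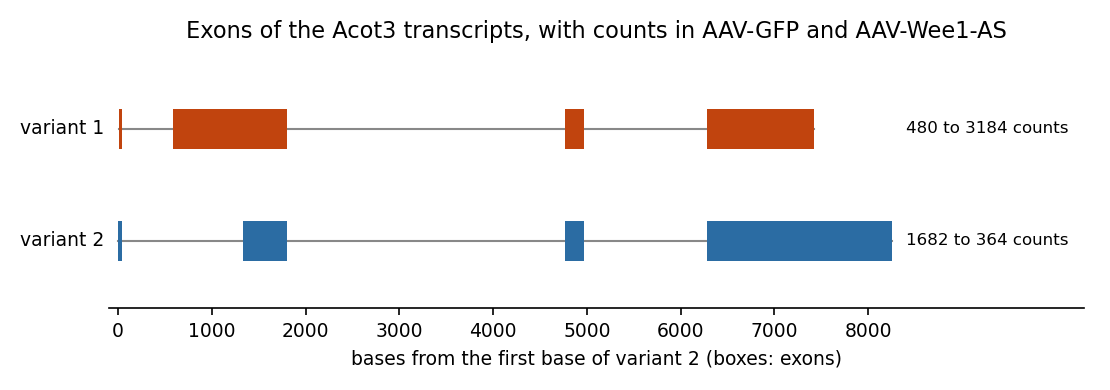
Exons (boxes) and introns (lines) of *Acot3* transcript variants 1 and 2, drawn to scale in bases from the first base of variant 2 (x axis), with the estimated counts in AAV-GFP and AAV-*Wee1-AS* at the right. Variant 1 has the longer exon 2 and went from 480 to 3184 counts, and variant 2 has the longer last exon and went from 1682 to 364.

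The other members showed smaller shifts between transcripts. *Acot11* variant 1 (NM_001347159), which starts further upstream, had 0 of 1693 counts in AAV-GFP, for which the upper limit of the exact 95% interval is a share of 0.218%, and 171 in AAV-*Wee1-AS* (13.8%, 11.9 to 15.8), while variant 2 (NM_025590) had 1672 and 1064. *Acot4* kept most of its counts on NM_134247, with 1823 and 2003, and the noncoding model XR_003949990 had 126 and 309, or 6.35% (5.32 to 7.52) and 13.2% (11.9 to 14.7) of the gene. *Acot8* had 1148 and 535 counts on NM_133240, 91.0% (89.3 to 92.6) and 83.3% (80.2 to 86.1) of the gene, so that the lower count of *Acot8* lay on its main transcript.

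*Acot7*, with 11 listed transcripts, kept its 2 main ones in nearly equal shares. Variant 2 (NM_133348) held 47.7% and 47.0% and variant 7 (NM_001369276) held 35.3% and 34.8%, and both were lower in AAV-*Wee1-AS* by a log2 ratio of -0.52. Among its minor models the counts were exchanged, with XM_030253767 at 128 and 4 counts and XM_030253769 at 7 and 103. *Acot12* had 3104 and 5419 counts on NM_028790, 97.1% and 98.3% of the gene, so its higher value did not rest on a change of transcript. *Acot1*, *Acot2* and *Acot13* have 1 listed transcript each, and all counts of *Acot9* lay on NM_019736.

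**Figure D4:**
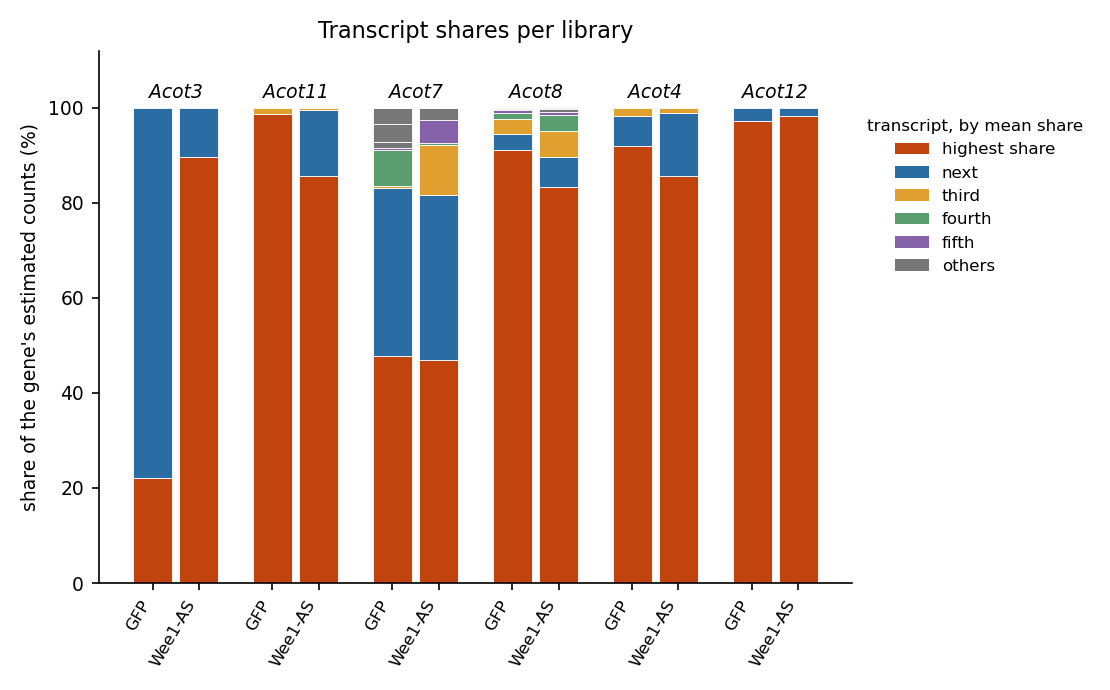
Share of each gene's estimated counts (y axis, percent) held by its transcripts in the AAV-GFP and AAV-*Wee1-AS* libraries (x axis), for the 6 members with more than 1 transcript above 0; colours rank the transcripts of each gene by mean share. *Acot3* is the gene whose main transcript differs between the libraries, with variant 1 at 22.2% in AAV-GFP and 89.7% in AAV-*Wee1-AS*.

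The ratios of the members went with their base composition, as did those of genes in general. Over all 14995 genes with a GC value for their longest GENCODE transcript, the ratio was lower the higher the GC content (Spearman's rho -0.67, a description across genes of the same 2 libraries), and the median log2 ratio ran from 1.43 in the lowest to -0.69 in the highest of 10 equal groups of genes by GC content. In the 10 members rho was -0.83 (n = 10). *Acot12*, *Acot9*, *Acot4* and *Acot1*, with 44.4% to 46.9% GC, were among the higher genes, and *Acot2*, *Acot8*, *Acot11* and *Acot7*, with 53.7% to 56.2% GC, were all lower. The rank correlation with transcript length was 0.60 in the members and 0.35 over all genes.

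Set against the median of genes of like GC content, an alternative chosen after the data were seen, most members lay close to it. *Acot3* (49.2% GC) stood 0.84 above its median on the log2 scale, higher than 82.8% of the 1500 genes in its GC group, and *Acot12* stood 0.34 above, higher than 63.5% of its group. *Acot11* stood 0.31 above, *Acot9* 0.21, *Acot2* 0.17, *Acot7* 0.12 and *Acot4* 0.02 above, and *Acot13* 0.09, *Acot8* 0.21 and *Acot1* 0.33 below. No member then passed 2-fold, beside 2741 of 14995 genes, so that the call of *Acot12* was lost, and *Acot1*, *Acot2*, *Acot7* and *Acot11* changed sign. *Acot4* changed sign, to -0.40, only when trends with both GC content and length were removed. The cause of the trend was not tested.

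**Figure D5:**
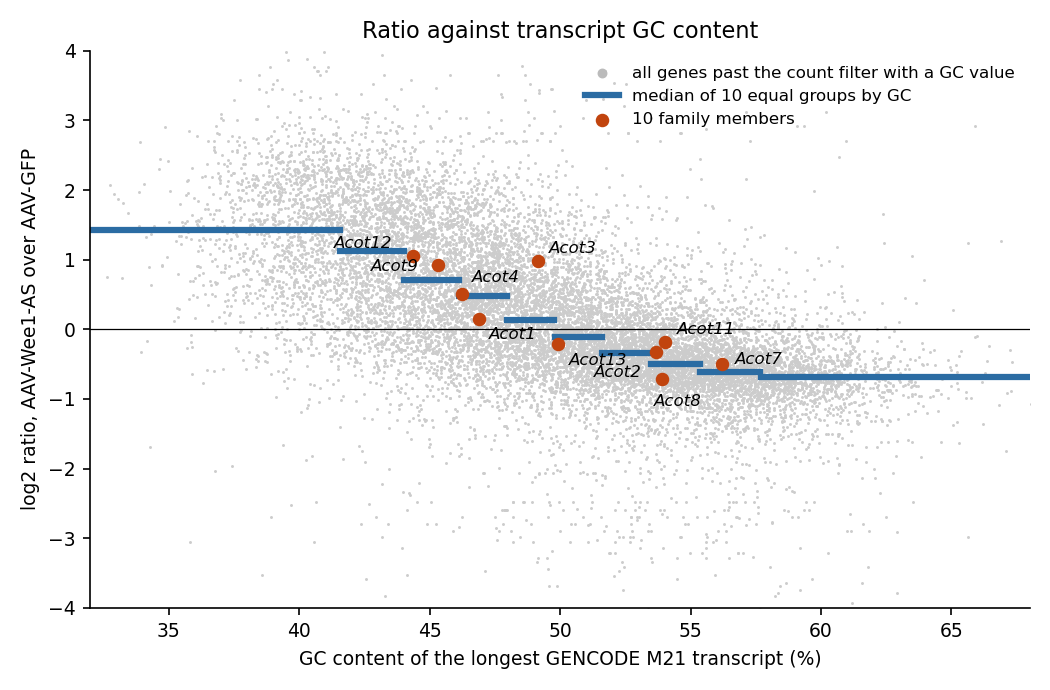
Log2 ratio, AAV-*Wee1-AS* over AAV-GFP (y axis), against GC content of the longest transcript in percent (x axis), with grey points for genes past the count filter, blue lines for the median of each of 10 equal groups by GC content and orange points for the 10 members; 52 genes lie outside the axes. The blue lines step down from 1.43 to -0.69, and *Acot3* is the member farthest above them.

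Of 6 further thioesterase genes that passed the filter, *Hibch* and *Them6* lay outside the range of the 10 members, and *Acot5*, *Acot6*, *Them4* and *Baat* lay within it. *Hibch*, the mitochondrial hydrolase of 3-hydroxyisobutyryl-CoA in valine breakdown, had 495 and 2342 counts, a log2 ratio of 2.50 (2.37 to 2.65), and still stood 1.79 above the median of genes of like GC content. *Them6* had 632 and 210 counts (-1.32, -1.56 to -1.10), and *Them4*, a mitochondrial thioesterase, had 463 and 587 (0.60, 0.43 to 0.78). *Baat*, which joins bile acids to glycine or taurine and belongs to the type I fold, was by far the most abundant of them, with 12029 and 10470 counts and a log2 ratio of 0.06 (0.03 to 0.10). *Them5* had 9 and 0 counts and did not pass the filter. In all, 1 of the 6 genes was above 2-fold and 1 below 0.5-fold (33.3% past 2-fold, near the 31.0% of all genes). Their median of 0.33 turned to -0.33 with trends in GC content and length removed.

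Around the thioesterases, the genes that make, carry and use acyl-CoA were counted in 6 lists, to be read against the 31.0% of all genes past 2-fold (22.2% above 2-fold and 8.71% below 0.5-fold). Of 19 acyl-CoA synthetases, which make the substrate of the thioesterases, 6 were above 2-fold and 1 was below 0.5-fold. This share of 36.8% was near that of all genes, and the median log2 ratio was 0.41. With TPM and a pseudocount of 1 in place of counts, 4 of the 19 were past 2-fold, beside 2046 of 15857 genes. *Acss3* had 481 and 1273 counts (1.66) and *Acsm3* had 1876 and 4790 (1.61). *Slc27a5*, the bile acyl-CoA synthetase, had the highest count of the list in AAV-GFP, with 56981 and 42314 (-0.17). In AAV-*Wee1-AS* the highest count was that of *Acsl1*, with 33910 and 56580 (1.00). Of 6 acyl-CoA binding proteins, 2 were above and 1 below, with a median of 0.15. *Acbd5*, which tethers peroxisomes to the endoplasmic reticulum, had 1385 and 6256 counts (2.44), *Acbd3* had 228 and 702 (1.88), *Acbd4* had 5206 and 1985 (-1.13), and the abundant fatty acid-binding gene *Fabp1* had 190133 and 182587 (0.21).

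Of 14 genes of coenzyme A synthesis, transport and breakdown, 4 were above 2-fold and none below 0.5-fold, with a median of -0.15. *Pank3*, a pantothenate kinase at the first step of coenzyme A synthesis, had 397 and 2285 counts (2.78), *Slc25a16* had 956 and 2638 (1.73), and *Nudt7*, which breaks down coenzyme A in peroxisomes, had 9870 and 16604 (1.01). Of 21 peroxisomal oxidation and transport genes, 3 were above and none below (5 past 2-fold with curated transcripts only), with a median of 0.09; *Crot*, which moves shortened acyl groups onto carnitine, had 9381 and 21794 counts (1.48) and *Abcd2* had 410 and 922 (1.43). Of 19 mitochondrial oxidation genes, 1 was above and none below, with a median of -0.13; it was *Etfa*, with 6274 and 11399 counts (1.12), and the most abundant gene *Acaa2* had 66645 and 45184 (-0.30).

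Of 24 known target genes of PPARα, none was above 2-fold and 3 were below 0.5-fold, beside the 22.2% and 8.71% of all genes, with a median of -0.23. With curated transcripts only, 8 of the 24 were past 2-fold, beside 4344 of 12847 genes, so this count rests on which transcripts are summed. *Mogat1* had 1272 and 405 counts (-1.38) and *Ucp2* had 7473 and 2754 (-1.18). Some of these genes, such as *Fabp1*, also stand in the lists above. With trends in GC content and length removed, the number of genes past 2-fold dropped to 2 for the synthetases (*Slc27a3* and *Acsm2*, the first not past 2-fold before), 1 for the binding proteins (*Acbd6*, not past 2-fold before), 0 for the coenzyme A genes, 0 for the peroxisomal genes and 1 for the PPARα targets, and was 1 for the mitochondrial genes (*Hadhb* in place of *Etfa*). *Slc27a3*, *Acsm2*, *Acbd6* and *Hadhb* were named after their values were seen. The number over all genes also dropped, from 4908 of 15857 to 2391 of 14995. The medians were then 0.29 for the synthetases, 0.23 for the binding proteins, 0.08 for the peroxisomal genes, -0.05 for the mitochondrial genes, -0.29 for the PPARα targets and 0.09 for the thioesterase members, and that of the coenzyme A genes turned from -0.15 to 0.13.

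PPARα binds DNA as a pair with RXR at the element DR1, which was searched as 2 copies of AGGTCA in the same direction with 1 base of any kind (N) between, on both strands of the 250 bases before each RefSeq start for which a promoter was given (GRCm38.p6). These were 11 starts of 9 of the 10 members, *Acot13* being the exception. Of these, *Acot12* held a match with 1 mismatch, found in 0.466% of 27025 promoters at this level or better, and *Acot4* held a match with 2 mismatches, a level found in 3.18%. The windows of these 2 members, the only ones with a match at up to 2 mismatches, are shown 5′ to 3′ on the plus strand. The match is in capitals and lies on the minus strand in both. The *Acot12* window is chr13:91741381-91741453, with the match starting 110 bases before the start of the main transcript NM_028790, and the *Acot4* window is chr12:84038336-84038378, with the match starting 13 bases before the start of NM_134247.
Acot12 promoter: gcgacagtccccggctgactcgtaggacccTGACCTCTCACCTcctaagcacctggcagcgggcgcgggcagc
Acot4 promoter: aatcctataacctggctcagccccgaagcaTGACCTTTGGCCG
The other 7 members, among them *Acot1*, *Acot2* and *Acot3*, held no match with up to 2 mismatches in the windows searched. For *Acot7* the window lay before the minor variant 6 (NM_001369275, 63 and 0 counts), and the starts of its main transcripts were not searched. The AGGTCA copy alone, which is part of DR1, stood in 2 of the 9 members, again *Acot4* and *Acot12*, beside 13.8% of all promoters. A match is a description of letters and was not tested for binding.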

How the data were processed

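Liver RNA (2 libraries, 1 per group; animals per library not stated) was prepared by the authors with a poly-A, strand-keeping kit. The submitters' processing notes name Trimmomatic 0.38, HISAT2 2.1.0, SAMtools 1.9, StringTie 2.1.3b and mm10; their settings are not given in the sources used here. The authors deposited, per transcript, estimated counts, FPKM and TPM. In 99.9992% and 100% of rows the deposited estimated counts are FPKM multiplied by length, divided by a library constant and rounded up. These values do not show how reads shared by transcripts were assigned. TPM values, scaled by the authors to an equal sum, were summed per gene as levels. FPKM values deposited by the authors served as an alternative.

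Counts were summed per gene symbol and scaled by TMM over all genes (edgeR 4.0.16), factors 1.02 and 0.980. Genes reaching 10 counts in either library were kept (15857). Log2 ratios used a prior count of 2, and intervals were exact Clopper-Pearson 95% intervals of counting error only. On simulated counts, 95.5% of intervals held the true ratio, all 200 genes simulated at 4-fold passed 2-fold, and so did 159 of 15657 simulated with no difference. A simulated GC trend alone put 763 of 14995 genes past 2-fold, and 132 after its removal. That trend was a straight line in GC content, with no trend in length and counting error only. It put fewer genes past 2-fold than the data did (4908 of 15857). So it does not show how well removal works on the trend seen here. Alternatives used DESeq2 1.42.0 size factors, other scalings, filters, units and transcripts, and lowess (span 0.3) removal of GC and length trends. All 10 members and the further thioesterases were named; from the other lists, those with at least 100 counts past 2-fold (up to 2 highest and 2 lowest) and the gene with the highest count in either library, which for some lists is not reported here. The members and lists were chosen with earlier results of these data known.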

Additional observations from a re-analysis of the deposited data

How the results depend on the processing

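With 1 library per group, no animal could be left out. No paired analysis was possible because each group held a single library. Under 13 alternatives *Acot3* (0.77 to 2.99), *Acot12* (0.33 to 1.07), *Acot9* (0.21 to 0.94), *Acot8* (-0.91 to -0.14) and *Acot13* (-0.42 to -0.01) kept their direction, and *Acot1*, *Acot2*, *Acot7*, *Acot4* and *Acot11* changed it under 3, 2, 2, 1 and 1 of them. The number of members past 2-fold was 0 in place of 1 with library totals, upper quartile scaling, totals without the 20 most abundant genes, FPKM or TPM with a pseudocount of 1, GC and length trends removed, or the median of the GC group subtracted (added after seeing the data), and 2 with the most abundant transcript only, where *Acot3* reached 2.99. The most abundant transcript was the one with the highest count summed over both libraries. For *Acot3* it was variant 1, while variant 2, the more abundant in AAV-GFP, had a log2 ratio of -1.94. So the direction and size of *Acot3* under that setting follow from the choice of transcript. The number of all genes past 2-fold was 1336 with FPKM, 2046 with TPM, 2391 with trends removed and 2741 with the group median subtracted, in place of 4908. For the 19 acyl-CoA synthetases the number was 4 with FPKM and with TPM, in place of 7. Upper quartile scaling moved the median of all genes by -0.20. It put 56.8% of the genes past 2-fold on the higher side in place of 71.9%, and trend removal and subtraction put 46.7% and 51.1% there. Upper quartile scaling also moved the median of the mitochondrial oxidation list from -0.13 to -0.34 and *Cfd*, the only adipocyte marker kept, from 0.07 to -0.13; *Cfd* was 0.29 with its most abundant transcript, 0.86 with trends removed and 0.76 with the median subtracted. The causes were not tested. Depth limits *Acot9* most, whose interval spans ratios of 1.52 to 2.41.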
